A study of Mus musculus with 6 samples.

Results

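The integrated stress response genes described here are 10 mouse genes chosen by name: Atf4, Ddit3, Trib3, Chac1, Asns, Psat1, Phgdh, Slc7a11, Ddit4 and Sesn3. Of these, 9 were among the 14162 genes of the deposited tables, and Chac1, which encodes an enzyme that degrades glutathione, was not analysed here. RNA was sequenced from whole lungs of mouse embryos at E12.5. The 3 libraries called Dnmt1KO carried ShhCre, Cre recombinase from the Shh locus, together with a deletion of Dnmt1, the maintenance DNA methyltransferase. The other 3 libraries, WT, were from littermates of wild-type genotype, for which the labels name no Cre. The Shh gene is expressed in airway epithelium, so the deletion concerns that layer, while each value averages over epithelium, mesenchyme, vessels and blood. In such bulk samples fewer cells of a type and less RNA per cell cannot be told apart. Nothing in the labels ties a library to a separate embryo. Reads of Y chromosome genes, given below, set Dnmt1KO replicate 1 apart from Dnmt1KO replicates 2 and 3, so it was not from the same embryo. For the remaining libraries this is not known. The p-values reflect the spread among these samples, which may be technical in part.

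The integrated stress response is a shared reply to amino acid shortage, misfolded protein in the endoplasmic reticulum, double-stranded RNA and haem shortage. A kinase for each of these signals phosphorylates the translation factor eIF2, which lowers protein synthesis in general and favours translation of the transcription factor ATF4. ATF4 then raises genes for amino acid synthesis and uptake and, when stress lasts, the cell death factor CHOP. Since ATF4 is controlled largely by translation, the RNA level of its target genes is the usual transcript readout of the response.

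ATF4 and its partners bind the C/EBP-ATF response element, searched here as TGATGNAAN on both strands in windows of 300 bases around each RefSeq start site on GRCm38.p6, 250 before it and 50 after. Of the 10 genes, 4 held a match (Trib3, Chac1, Asns and Slc7a11), against 4.5% of all genes that had a window. Over the genes of the table with a window, which leave out Chac1, the share was 2.65%. The genes were picked by name for the integrated stress response and include known ATF4 targets as well as Atf4 itself. A match is a run of letters, not a shown binding site. The 100 bases before the start site of Asns and Slc7a11, the gene with the smallest p of the 9 and the gene with 1 library far above the rest, are printed 5′ to 3′ on the strand of the gene, with the matches in capitals.
Asns, chr6:7693210-7693309, minus strand: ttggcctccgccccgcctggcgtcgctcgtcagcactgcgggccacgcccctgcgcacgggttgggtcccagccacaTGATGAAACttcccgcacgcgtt
Slc7a11, chr3:50443614-50443713, minus strand: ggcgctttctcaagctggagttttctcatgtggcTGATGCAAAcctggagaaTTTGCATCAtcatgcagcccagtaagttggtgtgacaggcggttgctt
Asns held 1 match, and Slc7a11 held 2, the second on the opposite strand. The Trib3 match, TGATGTAAA on the opposite strand, began 14 bases after the start site. Unlike in the other windows of these genes, the bases checked after that site were not found in an annotated transcript of the gene. The position of the Trib3 match is therefore uncertain. The windows of Atf4, Ddit3, Ddit4, Psat1, Phgdh and Sesn3 held none. The windows differed in CpG dinucleotides, the sites at which DNMT1 maintains methylation that is already there. Slc7a11 had 4, Phgdh 11 and the other windows of these genes between 17 and 30, against a median of 20 over the windows of genes in the table. These are counts of sites, and whether they were methylated was not measured here.

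The read numbers recovered from the deposited log2 values summed to between 18192629 and 25597662 per library, and levels are given below in RPM, the reads scaled to a library total of 1000000. Dnmt1, the targeted gene, had 8723, 8565 and 8388 reads in Dnmt1KO replicates 1, 2 and 3, against 13466, 10786 and 12602 in WT replicates 1, 2 and 3. Its log2 difference was -0.31 ± 0.09 (SE, limma adjusted p = 0.507), with all Dnmt1KO values below all WT values. A value for the whole gene includes cells outside the Cre lineage. The lung markers Nkx2-1, at 112 to 171 RPM in Dnmt1KO and 165 to 185 in WT, and Tbx4, at 188 to 257 in Dnmt1KO and 208 to 244 in WT, were present in every library. Of the 11 lung epithelium markers none passed limma's test. Sftpc, Id2 and Bmp4 were higher in every Dnmt1KO library than in any WT library, and Foxa1 was lower. Over all genes, 4.79% were higher in this way, and 8.78% had groups that did not overlap in either direction. Sftpc had 75.6, 47.6 and 44 RPM in Dnmt1KO and 17.5, 23.7 and 13.6 in WT (log2 difference 1.58, adjusted p = 0.0585). Foxa1 had 17.5, 17.6 and 42 RPM in Dnmt1KO and 61.6, 72.7 and 65.3 in WT (-1.51, adjusted p = 0.223). Of the 8 lung mesenchyme markers none passed, and Foxf1 alone did not overlap between the groups, being lower in Dnmt1KO (-0.38). Dnmt1KO replicate 1 had 3 reads over 4 genes of the Y chromosome, against at least 4155 in each of the other 5 libraries.

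None of the 9 measured genes passed the test between Dnmt1KO and WT lungs, which was limma over all genes with Benjamini-Hochberg adjustment at 0.05. The same test called 0.282% of all genes higher and 0.00706% lower. The 40 genes called higher dropped to 15 with Dnmt1KO replicate 1 left out and to 25 with either Dnmt1KO replicate 2 or WT replicate 3 left out. The 1 gene called lower became 17 with Dnmt1KO replicate 3 left out, 3 with WT replicate 1 left out and 0 with each of the remaining 4 left out in turn. At an unadjusted p under 0.05, 1 of the 9 stood out (Asns), against 4.52% of all genes. With voom on the recovered reads none of the 9 passed either. Asns was the 1 gene of the 9 whose groups did not overlap, against 8.78% of all genes in either direction and 4.79% with every Dnmt1KO library above every WT library. The median log2 difference of the 9 was 0.092, with 5 positive and 4 negative, against a median of -5.9e-05 over all genes. This median was -0.012 for the 7 genes left after a filter dropped the lowest 25% of genes by mean value. Leaving out WT replicate 3 gave a median of 0.0086, leaving out Dnmt1KO replicate 2 gave 0.0099 and leaving out Dnmt1KO replicate 1 gave 0.018.

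**Figure D1:**
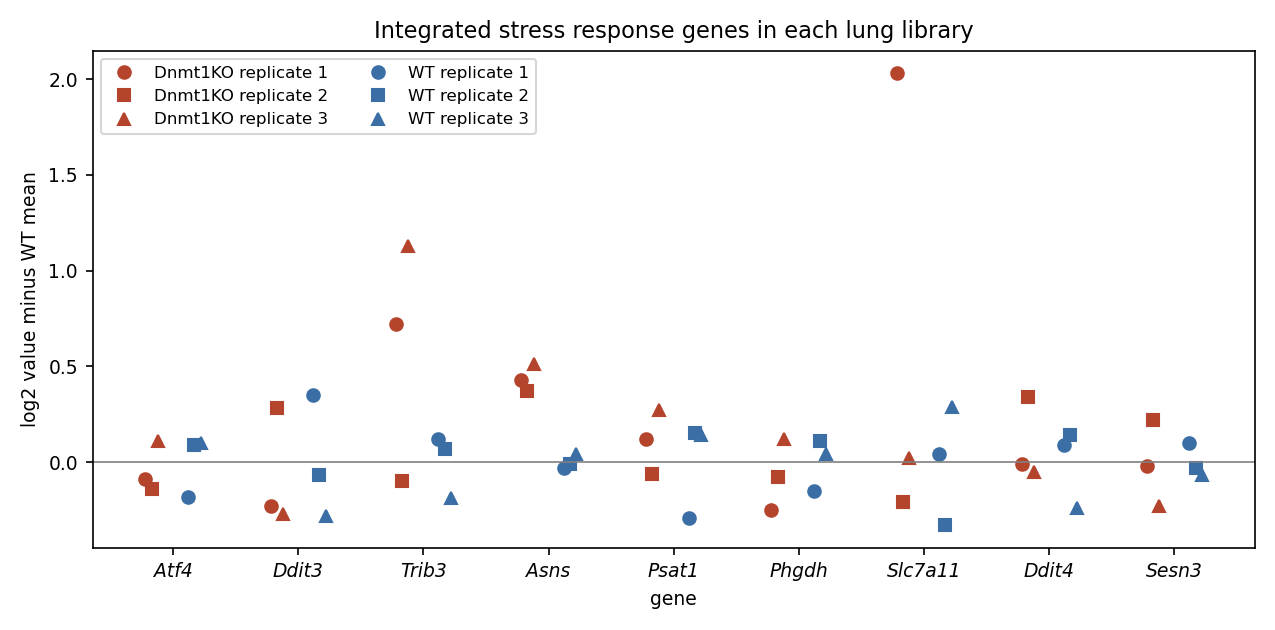
Log2 value of each gene in each library minus the WT mean of that gene (vertical axis), with Dnmt1KO libraries to the left of WT libraries and the replicate number given by the symbol. Asns is the gene whose Dnmt1KO points, from 0.37 to 0.51, all lie above its WT points, and Slc7a11 has 1 Dnmt1KO point at 2.03.

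The transcription factors of the response had overlapping groups. Atf4, which carries the response, had 148, 142 and 169 RPM in Dnmt1KO, against 137, 163 and 167 RPM in WT. The groups overlapped almost fully, with both the highest value in Dnmt1KO and the lowest in WT. Its log2 difference was -0.040 ± 0.11 (SE, limma adjusted p = 1), with a 95% interval of the fold, Dnmt1KO over WT, of 0.822 to 1.15. The sign turned when WT replicate 2 (0.0027), WT replicate 3 (0.0086) or Dnmt1KO replicate 2 (0.0099) was left out. Ddit3, which encodes CHOP, had 14.5, 20.5 and 14.1 RPM in Dnmt1KO and 21.6, 15.8 and 13.9 in WT. One library of each group was high and the other two were low, so the groups covered nearly the same range. The interval of the fold for Ddit3 was 0.686 to 1.31 (log2 difference -0.075 ± 0.20, limma adjusted p = 1). A second identifier named Ddit3 overlaps this one in the annotation, so how reads were divided between them is uncertain.

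Trib3 encodes a pseudokinase that ATF4 and CHOP raise and that in turn restrains them. It had 5.55, 3.13 and 7.36 RPM in Dnmt1KO replicates 1, 2 and 3, against 3.63, 3.45 and 2.93 in WT. Dnmt1KO replicates 1 and 3 lay above all WT libraries and Dnmt1KO replicate 2 lay among them. The log2 difference was 0.58 ± 0.31 (SE, limma adjusted p = 1), with a fold interval of 0.916 to 2.45, and it moved to 0.92 with Dnmt1KO replicate 2 left out and to 0.31 with Dnmt1KO replicate 3 left out. Replicate 3, from 155 reads, had an exact Poisson 95% interval of 6.25 to 8.62 RPM, and replicate 2, from 63 reads, one of 2.41 to 4, so these libraries of 1 group differed by more than counting error, which is all these intervals cover. Erythroid markers were also higher in replicates 1 and 3: the 13 measured genes of a list of 14 summed to 2500, 2040 and 3420 RPM in Dnmt1KO replicates 1, 2 and 3, against 1530 to 2140 in WT, with no marker at 0. Their part in the Trib3 values was not tested.

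Of the amino acid synthesis genes, Asns had the smallest p. It encodes asparagine synthetase, an enzyme whose gene is a classic target of ATF4 when amino acids are short. Asns had 51.6, 49.4 and 54.3 RPM in Dnmt1KO lungs, against 37.2, 37 and 39.2 RPM in WT lungs. Every Dnmt1KO library was above every WT library, and within each group the libraries were close together, with a mean of 51.8 ± 2.44 RPM for Dnmt1KO and of 37.8 ± 1.21 RPM for WT (SD, n = 3 libraries). The log2 difference was 0.44 ± 0.08 (SE), a fold of 1.36 with an interval of 1.19 to 1.54. Its unadjusted limma p of 0.000599 ranked 73 among the 14162 genes, and its adjusted p was 0.113, so it did not pass. An exact two-sided permutation test over the 6 libraries gave p = 0.1, the smallest that 3 against 3 allow. Over 15 alternative settings, which include leaving out each library, the log2 difference of Asns lay between 0.40 and 0.47 and its adjusted p between 0.0774 and 0.401. Sums of liver markers also split the groups: the 4 measured genes of a list of 10 (Afp, Alb, Apoa1 and Apob) summed to 28.6, 17.6 and 14.9 RPM in Dnmt1KO against 3.01, 5.29 and 3.32 in WT, with none at 0. Afp, Apoa1 and Apob each had groups that did not overlap, against 8.78% of all genes. The Alb groups, at 0.66 RPM in Dnmt1KO replicate 1 and 0.922 RPM in WT replicate 2, did overlap. The summed lung epithelium markers were 1130, 875 and 1120 RPM in Dnmt1KO and 972, 1060 and 967 in WT and overlapped, though Sftpc, Id2, Bmp4 and Foxa1 each split the groups. The part of either list in the Asns values was not tested.

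**Figure D2:**
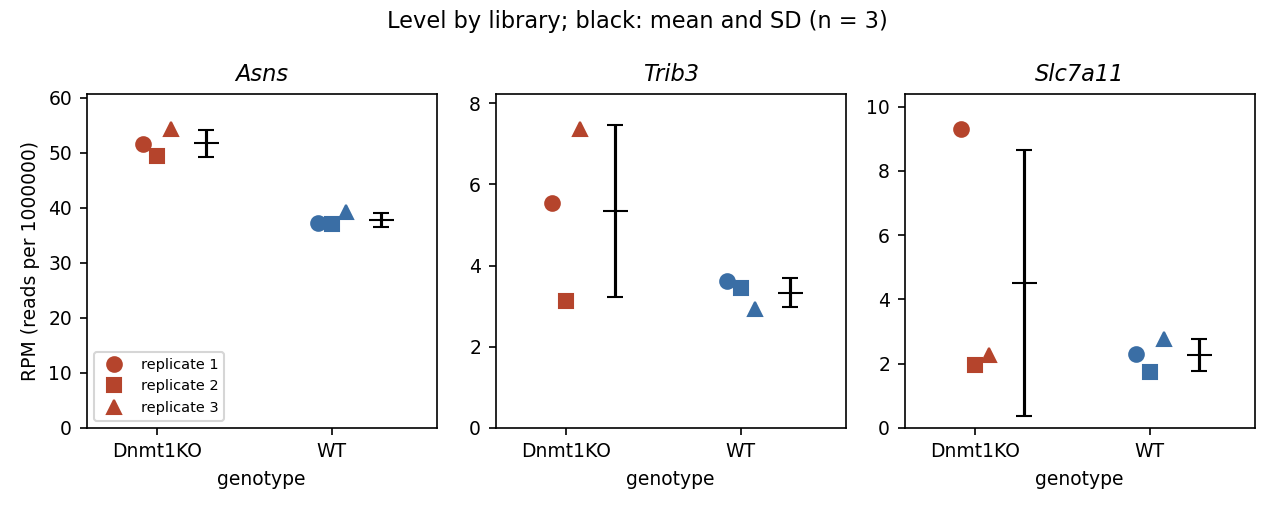
RPM (reads per 1000000) of Asns, Trib3 and Slc7a11 in each library (points, Dnmt1KO left and WT right), with the mean and SD of 3 libraries in black beside them and each vertical axis starting at 0. The Asns groups are apart at 51.8 and 37.8, while the Dnmt1KO means of Trib3 and Slc7a11 rest on 2 libraries and 1 library.

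The serine synthesis genes did not follow Asns. Phgdh, which encodes the first enzyme of the pathway from the glycolytic intermediate 3-phosphoglycerate, had 177, 199 and 229 RPM in Dnmt1KO and 189, 223 and 215 in WT. Psat1, which encodes the aminotransferase of the next step, had 167, 147 and 185 RPM in Dnmt1KO, against 125, 166 and 168 in WT. In both genes the groups overlapped, and Dnmt1KO replicate 3 was the highest of the 6 libraries. The log2 difference of Phgdh was -0.071 ± 0.11 (fold interval 0.795 to 1.14) and that of Psat1 was 0.11 ± 0.14 (0.869 to 1.34), both with limma adjusted p = 1. The annotation also holds a Phgdh pseudogene, so some reads of Phgdh may be shared with it. Psph, which encodes the last enzyme of the same pathway and was taken from the wider list of ATF4 targets after its values were seen, had 19.4, 19.4 and 23.6 RPM in Dnmt1KO and 19, 22.5 and 21.4 in WT.

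Slc7a11 encodes the light chain of the cystine-glutamate exchanger, which brings in cystine for glutathione. It had 9.29, 1.94 and 2.28 RPM in Dnmt1KO replicates 1, 2 and 3 (169, 39 and 48 reads), against 2.3, 1.75 and 2.76 in WT replicates 1, 2 and 3 (59, 36 and 64 reads). Dnmt1KO replicate 1 stood alone, with an exact Poisson 95% interval of 7.94 to 10.8 that lay above the intervals of the other 5 libraries, of which the highest upper limit was 3.53. The log2 difference over all libraries was 0.61 ± 0.55 (SE, limma adjusted p = 1), with a fold interval of 0.641 to 3.64. Without Dnmt1KO replicate 1 the sign turned and the difference was -0.099. This is also the library without Y chromosome reads, and the part of sex in the Slc7a11 value was not tested. Slc3a2, which encodes the heavy chain that pairs with SLC7A11 and other transporters, had 107, 91.8 and 106 RPM in Dnmt1KO, against 93.4, 103 and 97.3 in WT, so replicate 1 was the highest there by a narrow margin only.

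Ddit4 and Sesn3 encode proteins that restrain the growth kinase complex mTORC1, and both also answer to signals outside this response, such as hypoxia and glucocorticoids for Ddit4 and FOXO factors for Sesn3. Ddit4 had 88.2, 112 and 86 RPM in Dnmt1KO and 94.3, 96 and 75.1 in WT. Sesn3 had 71.3, 84.1 and 61.9 in Dnmt1KO and 77.4, 69.4 and 68.7 in WT. Dnmt1KO replicate 2 was the highest of the 6 libraries for both genes, and the groups overlapped. The log2 differences were 0.092 ± 0.14 for Ddit4 (fold interval 0.857 to 1.33) and -0.012 ± 0.12 for Sesn3 (0.820 to 1.20), both with limma adjusted p = 1. Dnmt1KO replicate 2 also had the most reads of cardiac muscle markers: the 7 measured genes of a list of 8 summed to 39.6, 507 and 107 RPM in Dnmt1KO and to between 50.2 and 82.2 in WT, with none at 0. Their part in these values was not tested.

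**Figure D3:**
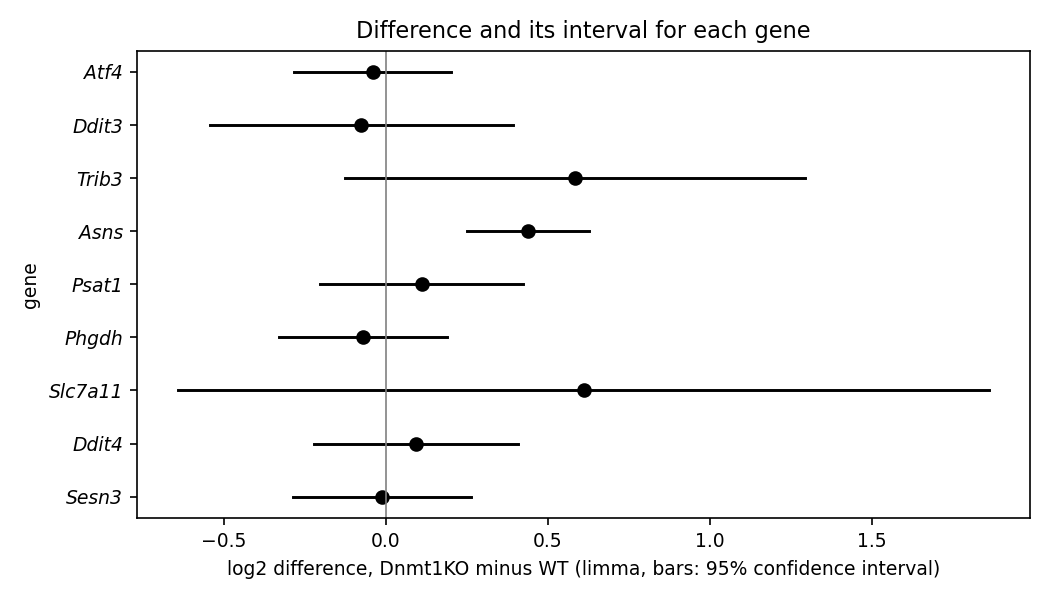
Log2 difference between Dnmt1KO and WT (points) with its 95% confidence interval from limma (bars) for the 9 measured genes. For 6 of the 9 the interval lies within a fold of 1.5 in either direction, and Trib3 and Slc7a11 have the widest intervals.

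The intervals set how large a change in whole-lung RNA these libraries could hide. As each value averages over the whole lung, they do not bound a change within the epithelium alone. For 6 of the 9 genes (Atf4, Ddit3, Psat1, Phgdh, Ddit4 and Sesn3) the 95% interval lay within a fold of 1.5 in both directions, and for Asns it ended at 1.54. Trib3 and Slc7a11 were among the 25% of genes with the fewest reads, and their intervals included a rise of 2-fold. These intervals are for single genes and are not adjusted for the number of genes.

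Other genes of the pathway were counted from lists drawn up by function, with earlier results of these data known, and none passed limma's test over all genes, by which 0.29% of all genes were called in either direction. The upstream list held the eIF2 kinases, eIF2 and its exchange factor eIF2B. None of its 13 genes had an unadjusted p under 0.05, and the log2 differences ran from -0.17 to 0.16 with a median of -0.025, which was 0.011 without WT replicate 3. The smallest p belonged to Impact, an inhibitor of the amino acid sensor GCN2, at 72, 64.1 and 64.2 RPM in Dnmt1KO and 59, 53.7 and 64.3 in WT (log2 difference 0.16 ± 0.09). It was followed by the eIF2B subunit genes Eif2b5 (-0.14 ± 0.09) and Eif2b2 (-0.17 ± 0.10) and by Eif2ak4, which encodes GCN2 (-0.095 ± 0.10). On the list of the phosphatase that reverses the response, Ppp1r15a, the stress-induced subunit known as GADD34, had 20.3, 16.3 and 23 RPM in Dnmt1KO and 16.3, 15.9 and 17.1 in WT (0.25 ± 0.14). None of the 5 genes there had an unadjusted p under 0.05, the other log2 differences being 0.084 ± 0.10 for Ppp1cb, 0.092 ± 0.12 for Dnajc3 and -0.030 ± 0.09 for Nck1, with Ppp1r15b at -0.019.

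The wider list of ATF4 targets and partners was uneven. Of its 25 measured genes none passed over all genes, 5 had an unadjusted p under 0.05, all higher in Dnmt1KO, against 2.92% of all genes, and the median log2 difference was 0.078. This median was 0.012 without WT replicate 3, 0.17 without WT replicate 2 and 0.00030 with the lowest 25% of genes removed. The 5 were Gdf15, Bbc3, Cebpb, Nupr1 and Sesn2, of which Gdf15, Bbc3 and Sesn2 are also known targets of p53. Gadd45a and Sesn1, p53 targets too, were at -0.13 ± 0.17 and -0.022 ± 0.10. They were picked with their values in view, and no list of p53 targets was counted here. The part of p53 was not tested. Gdf15, a stress cytokine, had 94, 41 and 18 reads in Dnmt1KO replicates 1, 2 and 3, against 4, 2 and 0 in WT (log2 difference 4.76 ± 0.95, limma adjusted p = 0.141). As so few WT reads make the fold depend on the offset, the difference was 3.79 with an offset of 2 reads and 3.52 with quantile normalization. Gdf15 passed with sample weights (adjusted p = 0.0369) and with the replicate number as a block (0.0493), and its adjusted p over the alternatives ran from 0.0369 to 0.602. Bbc3, which promotes apoptosis, had 15.6, 12.7 and 9.79 RPM in Dnmt1KO and 9.49, 6.84 and 6.9 in WT (0.69 ± 0.21, adjusted p = 0.607). In both genes the Dnmt1KO libraries lay above all WT libraries, with replicate 1 the highest.

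Cebpb, a transcription factor that pairs with ATF4, had 27.7, 32.6 and 32.5 RPM in Dnmt1KO, against 19.5, 25.9 and 23.5 in WT (log2 difference 0.42 ± 0.13, limma adjusted p = 0.67). For Nupr1, a stress-induced chromatin protein, the Dnmt1KO libraries held 26, 31 and 25 reads, against 23, 11 and 19 reads for WT (0.88 ± 0.35, adjusted p = 0.975). The groups did not overlap in either gene once scaled to depth. Sesn2, the sestrin that ATF4 raises, had 37.5, 32.4 and 18.6 RPM in Dnmt1KO and 21.1, 19.5 and 14.4 in WT (0.63 ± 0.26, adjusted p = 1), and replicate 3 lay within the WT range. The remaining 20 genes of the list included the mitochondrial folate genes Mthfd2 (-0.13 ± 0.10) and Shmt2 (-0.049 ± 0.08). They also included the transcription factor genes Atf3 (0.23 ± 0.21) and Atf5 (0.12 ± 0.12). All of these were chosen here after their values were seen. Of the 25 measured genes, 7 had every Dnmt1KO library above every WT library, against 4.79% of all genes. Besides Gdf15, Bbc3, Cebpb and Nupr1 these were Ndrg1 (0.26 ± 0.13), Aldh1l2 (0.25 ± 0.15) and Atf3. For 1 gene, Pycr1, every Dnmt1KO library was below.

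**Figure D4:**
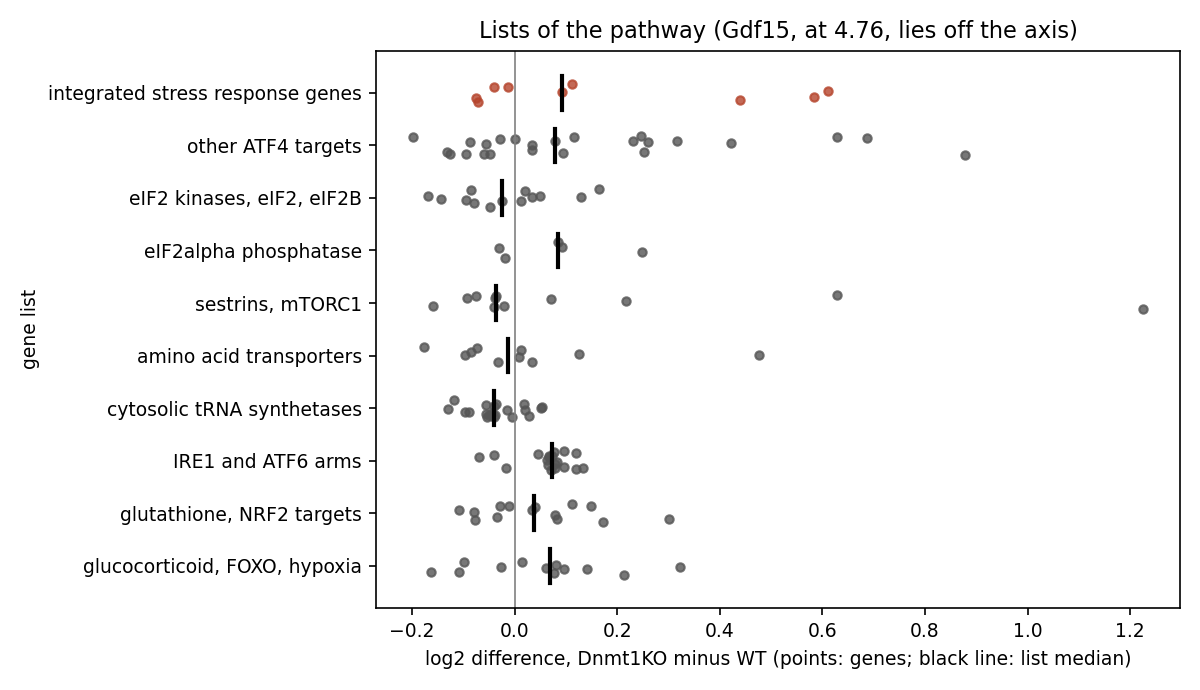
Log2 difference between Dnmt1KO and WT for each measured gene (points) of the integrated stress response genes and of 9 related lists, with the list median as a black line. The medians lie between -0.041 and 0.092, Gdf15, at 4.76, lies beyond the axis, and the furthest point drawn to the right is Ddit4l at 1.23.

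Among the genes around mTORC1, 2 of 11 had an unadjusted p under 0.05, against 4.52% of all genes. Ddit4l, a paralogue of Ddit4, had 9.51, 5.81 and 4.56 RPM in Dnmt1KO and 3.36, 1.94 and 2.89 in WT, a log2 difference of 1.23 ± 0.32 (limma adjusted p = 0.364) with groups that did not overlap. The other was Sesn2, already counted on the list of ATF4 targets, while Rptor (-0.16 ± 0.10) and Depdc5 (-0.094 ± 0.08) came next by p. The list median was -0.037, and it ran from -0.090 to 0.073 with libraries omitted in turn.

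Amino acid transporters and tRNA synthetases, both groups that hold ATF4 targets, had no gene with an unadjusted p under 0.05. The 10 transporters had a median log2 difference of -0.013 (-0.063 to 0.071 with libraries omitted in turn), with the smallest p for Slc7a3 (0.48 ± 0.38), Slc7a6 (-0.085 ± 0.08), Slc7a1 (-0.097 ± 0.09) and Slc1a5 (-0.18 ± 0.23). The 20 cytosolic tRNA synthetases lay between -0.13 and 0.053 with a median of -0.041, and 15 of them were negative. Their median was 0.020 without WT replicate 3. Mars (-0.13 ± 0.08), Aars (-0.12 ± 0.09), Farsa (-0.090 ± 0.07) and Yars (-0.098 ± 0.09) had the smallest p.

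The other arms of the unfolded protein response, run by IRE1 and ATF6, had 16 of 19 genes positive and a median log2 difference of 0.073, with no gene at an unadjusted p under 0.05. The chaperone gene Canx had 552, 550 and 533 RPM in Dnmt1KO and 495, 497 and 482 in WT (0.13 ± 0.07), followed by p by Hsp90b1 (0.12 ± 0.09), Pdia3 (0.095 ± 0.08) and Creld2 (0.12 ± 0.13). The median of this list was -0.026 when WT replicate 3 was left out. On the list of glutathione synthesis and NRF2 targets 1 of 14 had an unadjusted p under 0.05, against 4.52% of all genes. That was Gclm, which encodes a subunit of the first enzyme of glutathione synthesis, at 39.4, 32.8 and 40.8 RPM in Dnmt1KO and 28.7, 31.2 and 30.5 in WT (0.30 ± 0.11, limma adjusted p = 0.849). Nfe2l2 (0.15 ± 0.10), Hmox1 (0.17 ± 0.12) and Txnrd1 (-0.11 ± 0.08) followed, and the list median was 0.037. Of 12 glucocorticoid, FOXO and hypoxia genes that share inputs with Ddit4 and Sesn3, 1 (Cited2) had an unadjusted p under 0.05. Over all genes this share was 4.52%. Cited2 had 57.2, 52.9 and 43.3 RPM in Dnmt1KO and 42.1, 40.8 and 37.8 in WT (0.32 ± 0.12, limma adjusted p = 0.856). Vegfa (-0.099 ± 0.08), Bnip3 (0.21 ± 0.20) and Foxo3 (0.14 ± 0.13) followed, with a list median of 0.069. With voom on the recovered reads no gene of these 9 lists passed.

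The 9 genes did not share 1 pattern over the 6 libraries. Their mean deviation on the log2 scale, each gene centred on its own mean, was 0.21, -0.023 and 0.087 in Dnmt1KO replicates 1, 2 and 3, against -0.084, -0.077 and -0.11 in WT replicates 1, 2 and 3. The high value of replicate 1 came with the Slc7a11 value described above. From this mean profile Asns differed by a root mean square of 0.146, Psat1 by 0.172, Atf4 by 0.173, Sesn3 by 0.204, Phgdh by 0.212, Ddit4 by 0.216, Ddit3 by 0.323, Trib3 by 0.389 and Slc7a11 by 0.711. Each of these genes enters the profile, and the distances are not scaled by the spread of a gene. They therefore reflect the size of its deviations as well as their shape and do not rank how far it shares the profile. The 5 other genes closest to the profile over the 6 libraries were Stk39 (0.0272), Cep112 (0.0304), Clcf1 (0.0413), Fancg (0.0424) and Nmi (0.0434), picked out of all genes of the table by that distance alone.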

How the data were processed

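The 6 mouse lung libraries were grouped by genotype from the labels. The submitters' processing notes name STAR, limma and mm9. How reads were counted, filtered and scaled is not given in the sources used here. Tables from the authors, deposited 1 per library, give a value headed SIGNAL for each Ensembl identifier, read here as log2 from the range of 1.0 to 18.44. 2 raised to each value equals a whole number of reads plus 0.5, times 1 constant per library, for 100% of genes within 1e-06 reads. The lowest gene total was 60 reads, and genes below that were not analysed here. Symbols came from the GENCODE GRCm38 annotation, which named 13967 of the 14162 identifiers, and promoter windows from RefSeq on GRCm38.p6. No coordinate was carried over to mm9.

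The deposited log2 values of all genes went into limma 3.58.1 (R 4.3.3) with no term but genotype, and eBayes was run with its trend and robust options. The fit was tested on simulated data. Differences are Dnmt1KO minus WT. RPM, reads scaled to a library total of 1000000, and exact Poisson intervals (scipy 1.17.1) were computed from the recovered reads.

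The genes and lists were chosen with earlier results of these data known. Named were all 10 genes, Dnmt1, up to 4 genes per pathway list by smallest p, the 5 genes nearest the mean profile and the defining markers of cell types; other genes were picked with their values in view. The alternatives tried were a replicate block, a filter on the lowest 25% of genes by mean, median centring, quantile normalization, scaling to library totals, eBayes without its options, sample weights, voom, an offset of 2 reads, and omission of each library.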

Additional observations from a re-analysis of the deposited data

How the results depend on the processing

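None of the 9 genes passed under any of the 15 alternatives, and Asns and Trib3 kept their direction in all that gave a value. The number of genes called higher, 40, was 26 with the replicate number as a block, 0 with the lowest 25% of genes removed and 15 to 42 with libraries omitted in turn. The number called lower, 1, was 0 with the block, 0 with the lowest 25% removed, 0 without trend and robust estimation, 12 with sample weights and 0 to 17 with libraries omitted in turn. Deviations of libraries with the same number had correlations across genes of -0.0027, -0.18 and 0.31, and those with different numbers ran from -0.37 to 0.38. As each deviation is taken from its group mean, these correlations are tied to each other. They cannot decide whether the numbers pair the samples, which the labels do not say. On the list of other ATF4 targets 1 gene, Gdf15, passed with the block and 1, again Gdf15, with sample weights. The median log2 difference of the 9 genes, 0.092, was -0.012 with the lowest 25% removed and 0.0086 to 0.17 with libraries omitted in turn; the cause was not tested, beyond the removal of Trib3 and Slc7a11 by the filter.

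Signs of differences near 0 turned. With sample weights Psat1 was at -0.012, Ddit3 at 0.15 and Sesn3 at 0.097, and Sesn3 was at 0.011 with quantile normalization, 0.0028 with scaling to library totals and 0.0011 with voom. With libraries omitted one at a time, differences ran from -0.099 to 1.02 for Slc7a11, -0.033 to 0.20 for Psat1, -0.029 to 0.17 for Ddit4, -0.17 to 0.018 for Phgdh, -0.13 to 0.0099 for Atf4, -0.25 to 0.10 for Ddit3 and -0.13 to 0.096 for Sesn3. The same held for Ppp1cb (-0.0018 to 0.17), Dnajc3 (-0.012 to 0.17), Nck1 (-0.078 to 0.028), Slc1a5 (-0.46 to 0.079) and Creld2 (-0.026 to 0.23). Trib3, Slc7a11, Gdf15 and Nupr1 rest on few reads.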
